A study of Mus musculus with 36 samples.

Results

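The genes described here are the replication-dependent histone genes that stand in clusters in the mouse genome, followed in bladder RNA over a day. They were taken by name: every feature called Hist1h to Hist4h in the deposited gene tables that was above zero in at least 18 of the 36 libraries. The rule found 53 of the 70 features with such names, among 49585 features in all. Of the 53, 42 had a read in every library. Just inside the limit stood Hist1h2ah, above zero in 18 libraries, and the next member, Hist1h2an, in 29. Just outside it stood Hist1h1t, a testis form of the linker histone, in 13 libraries, and Hist1h2bq, in 9. The 17 features left out included Hist1h2aa, at zero in every library, and Hist1h2ba, above zero in 1; both encode testis forms.

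All animals were C57BL/6 mice with bilateral adrenalectomy, which removes both adrenal glands, the main source of corticosterone. One arm received corticosterone (CORT, the main glucocorticoid of rodents) at what the labels call inactive timing, and the other received vehicle. Each arm has 18 libraries, with 3 replicates for every time label (4, 8, 12, 16, 20 and 24 h), which makes 12 groups. The labels give neither the age of the mice nor what the time labels count from, and never state whether replicates came from different animals. The p-values therefore cover the spread among the samples given here, part of which may be technical. The title of the series places the work in the study of how glucocorticoids act on the bladder clock.

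Replication-dependent histone genes supply the core histones H2A, H2B, H3 and H4 and the linker histone H1 that package new DNA. Their transcripts rise in S phase and, unlike almost all other messenger RNAs, end at a stem-loop instead of a poly(A) tail. A few of them, among them Hist1h1c, Hist1h2bc and Hist2h2be, are also known to give polyadenylated RNA in cells that do not divide. The libraries were made from total RNA by rRNA depletion, per the labels, and so read transcripts with and without a tail.

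The stem-loop is the sequence that marks these genes, and it was read from the gene models. A search for a 16-base hairpin, in which 6 bases pair with their complement around a loop of 4, was made within each model. It was found in 35 of the 53 members (66.04%), against 159 of all 55330 annotated genes (0.287%). The forms below are shown because they divide the members by family. The loop is in capitals.

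H1, H2A, H2B and H3: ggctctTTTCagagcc

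H4: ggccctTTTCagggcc

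loop TTTA: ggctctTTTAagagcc

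The form printed at the top stood in 20 members, none of them H4 genes, and the next in 6, all of them H4 genes. The form with the loop TTTA stood in 5, Hist1h3c among them. In 16 members the model ended within 100 bases of the stem-loop, in 19 it ran further, and in 18 no stem-loop was found. Hist1h1a and Hist1h1b are models of this last kind, with 741 and 743 bases. A model that leaves out the end of a transcript, or runs past it, changes how many reads a gene can collect, so levels compared between genes depend on the model.

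The promoters of the linker histone genes are shown because this family held both the highest member and a pair of the members that fell. The windows hold the 250 bases before the RefSeq start site, except that of Hist1h1a. It was cut at its end to 248 bases, so that it stops before the start of the gene model. All windows were read from RefSeq on GRCm38.p6. They lie at chr13:23763418-23763665 on the plus strand (Hist1h1a), chr13:21780626-21780875 on the minus strand (Hist1h1b), chr13:23738557-23738806 on the plus strand (Hist1h1c) and chr13:23622559-23622808 on the minus strand (Hist1h1e). Capitals mark matches on either strand to CCAAT, to TATAAA and to AAACACA, an element known from H1 promoters.

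Hist1h1a: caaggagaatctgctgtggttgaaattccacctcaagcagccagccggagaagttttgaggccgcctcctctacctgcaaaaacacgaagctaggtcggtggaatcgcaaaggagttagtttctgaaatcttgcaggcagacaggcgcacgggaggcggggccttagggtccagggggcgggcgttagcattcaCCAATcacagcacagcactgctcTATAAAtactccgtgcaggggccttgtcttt

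Hist1h1b: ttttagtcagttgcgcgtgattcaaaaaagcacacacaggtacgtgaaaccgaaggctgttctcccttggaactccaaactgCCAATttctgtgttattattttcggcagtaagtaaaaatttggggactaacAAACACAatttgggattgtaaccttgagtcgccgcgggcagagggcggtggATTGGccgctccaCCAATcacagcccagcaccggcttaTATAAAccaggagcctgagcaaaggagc

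Hist1h1c: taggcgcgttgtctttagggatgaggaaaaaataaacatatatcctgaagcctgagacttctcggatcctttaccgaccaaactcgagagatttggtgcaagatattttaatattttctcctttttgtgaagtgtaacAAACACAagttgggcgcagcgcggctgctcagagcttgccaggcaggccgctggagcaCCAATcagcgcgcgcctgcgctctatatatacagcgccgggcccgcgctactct

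Hist1h1e: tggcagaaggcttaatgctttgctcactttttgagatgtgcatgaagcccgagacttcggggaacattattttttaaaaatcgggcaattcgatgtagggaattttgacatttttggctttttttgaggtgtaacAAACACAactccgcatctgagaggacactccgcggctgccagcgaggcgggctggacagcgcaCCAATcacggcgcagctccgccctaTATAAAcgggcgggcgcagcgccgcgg

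Each of these 4 promoters held CCAAT, and AAACACA was matched in Hist1h1b, Hist1h1c and Hist1h1e. Of the 53 members, 48 matched a RefSeq promoter. CCAAT stood in 40 of the 48 (83.3%) against 33.8% of all 32851 promoters, but in 3 of 10 H4 promoters. TATAAA stood in 26 (54.2% against 12.4%). AAACACA stood in 4 of 5 H1 promoters and in 6.25% of all promoters. ATTTGCAT, the octamer known from H2B promoters, stood in 9 members (18.8% against 1.60%), 5 of them H2A and 4 H2B genes. These counts take 1 promoter per gene; Hist1h2be, an H2B gene, has a second RefSeq promoter, which does hold ATTTGCAT. GGTCC, part of an element known from H4 promoters, stood in 9 of 10 H4 promoters, and in 39.8% of all promoters. Some H2A and H2B genes lie next to each other on opposite strands, and their promoters overlap, so a site can count for both. The ATTTGCAT of Hist1h2ae and Hist1h2bg is the same stretch, as is that of Hist1h2ah and Hist1h2bk. None of these 5 motifs contains another, and a match describes letters only.

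Before the levels, 3 facts about the libraries bear on the results. A set of 8 replicate 2 libraries, those of both arms at 4, 8, 16 and 20 h, carry other names in the authors' selected-gene tables, some in the other arm. The names of the full tables were used, and results are also given without these libraries. The replicate 3 libraries lack a time tag and were registered later, and may be a separate batch; each of the 12 groups has 1 of them. The protocol text describes RNA from blood, whereas the source is bladder. Markers of smooth muscle, summed per library, ranged from 142220 to 405843 normalised reads, and those of urothelium from 42729 to 106734. Mean total counts per library, by arm and replicate number, were 9591304 to 12311337, and 31555 to 32934 features had no read.

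The values are read counts that the authors quantile normalised, brought here to 1 scale over all 36 libraries; they are called normalised reads. A few genes gave most of the histone signal. The members together held 5049 to 9492 normalised reads per library. Of the sum over the 70 named features, linker histone H1 took 41.3%, H4 36.9%, H2B 12.0%, H3 6.15% and H2A 3.58%. Member means ran from 0.93 (Hist1h2ah) to 2081 (Hist1h1c, linker histone H1.2). A mean of 50 or more was reached by 19 members, 10 to 50 by 19, and under 10 by 15. In single libraries 6 to 15 reads lay behind a normalised value of 10, so the lowest members rest on a few reads.

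Per kilobase of the gene model, Hist1h4h, an H4 gene, and Hist1h1c stood highest, at 1384 and 1334 normalised reads. Hist1h4d followed at 616, Hist1h4c at 407, Hist1h2bc at 336 and Hist1h1e (H1.4) at 286. The other linker genes stood far below them, Hist1h1b (H1.5) at 53.1 and Hist1h1a (H1.1) at 34.2. The highest H3 genes were Hist1h3e, at 208, and Hist1h3f, at 126. The highest H2A genes by normalised reads were Hist2h2ac and Hist1h2ak, at 111.6 and 25.4 normalised reads. Most members are single-exon genes (50 of 53), and 46 lie on chromosome 13, 5 on chromosome 3 and 1 each on chromosomes 6 and 11.

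Near-identical copies limit what single values mean. In 22 members at least 50% of the 50-base stretches of the transcript also occur in another annotated gene, with a range over members of 0 to 93.9%. How the authors' counting divided such reads is not given in the sources used here, so values of these genes are uncertain. Hist1h1a and Hist1h1b shared no such stretch, Hist1h2bp 45.3% and Hist1h3c 47.0%. All 13 H2A members have a gene model on the other strand. The kit is directional, but whether the counting used strand is not given. The spans of Hist1h1e and Hist1h2be overlap each other on the same strand, and how reads there were divided is not given either.

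The first comparison asks whether histone RNA differed between CORT and vehicle over the day. In the main fit 4 of 53 histone genes were called, all lower under CORT, where 4.14% of all features were called and 2.85% lower. No member was called without replicate 2, without replicate 3, or without the 8 libraries that carry other names. Under those other names none was called either. None of the abundant genes passed in the main fit, though other settings called abundant H4 genes, as given below. Hist1h1b, Hist1h1a, Hist1h3c and Hist1h2bp fell, by 0.56 to 0.98 on the log2 scale. These are 2 linker histone genes, an H3 gene and an H2B gene, all of low to middle level. Hist1h1c, Hist1h1e, Hist1h4d, Hist1h4h and Hist1h2bc, which carry most of the signal, had differences between -0.11 and 0.13.

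Hist1h1b, at chr13:21779883-21780625 (mm10, minus strand, 1 exon), encodes the linker histone H1.5. The lowest, median and highest of its 18 CORT libraries were 10.9, 23.6 and 75.3 normalised reads, and those of its 18 vehicle libraries 27.2, 41.2 and 106. The arms overlap, but the CORT median lies below the lowest vehicle library. The difference was -0.82 ± 0.17 (SE) on the log2(value + 1) scale (limma, adjusted p = 0.0068), and the CORT mean was lower at 6 of 6 times.

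Hist1h1a, at chr13:23763666-23764406 (plus strand), encodes H1.1. Its CORT libraries ran from 6.50 over a median of 18.9 to 40.8 normalised reads, and its vehicle libraries from 13.5 over 25.2 to 72.3. The arms overlap over most of their range. The difference was -0.56 ± 0.14 (limma, adjusted p = 0.0263), lower at 4 of 6 times.

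Hist1h3c, at chr13:23744973-23745602 (minus strand), encodes H3 and is one of the genes with the TTTA loop shown above. Its CORT libraries ran from 2.44 over a median of 9.60 to 31.1, and its vehicle libraries from 5.61 over 19.7 to 57.5. Most CORT libraries thus lay below the vehicle median, within an overlapping range. The difference was -0.92 ± 0.21 (limma, adjusted p = 0.0121), lower at 6 of 6 times.

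Hist1h2bp, at chr13:21787461-21789213 (plus strand, 2 exons), encodes H2B. It was listed at 0 in its lowest CORT libraries, with a median of 2.64 and a highest value of 8.5; in vehicle it ran from 1.92 over 5.82 to 13.3. These are a few reads per library. The difference was -0.98 ± 0.21 (limma, adjusted p = 0.00959), lower at 5 of 6 times.

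**Figure D1:**
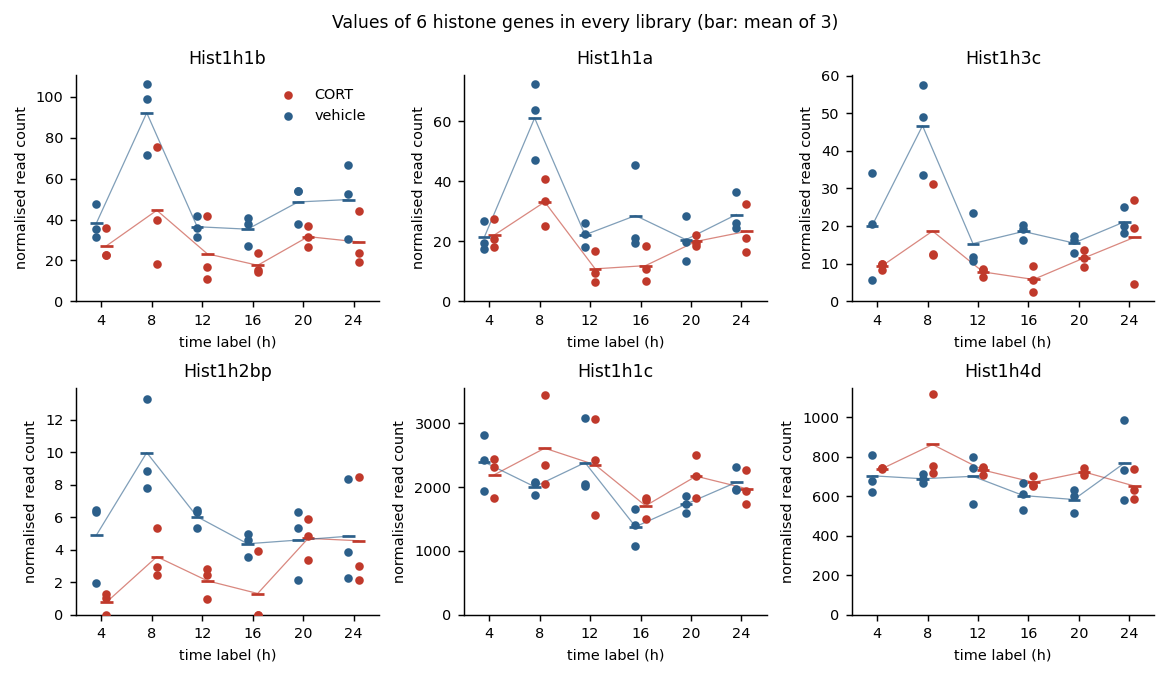
Normalised read counts of 6 histone genes in each of the 36 libraries by time label (h), with CORT and vehicle in separate colours; the short lines are the means of 3. The vehicle libraries of Hist1h1b at 8 h stand at 71.4, 99.1 and 106, against 39.9, 18.3 and 75.3 under CORT, while Hist1h1c overlaps between the arms at every time.

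Called members were 4 of 53, all lower in CORT, where 4.14% of the 17744 features tested were called, 2.85% lower and 1.3% higher. At an unadjusted p under 0.05 there were 15 members (20.3% of all features), all lower (28.3%, against 9.41% of all features lower). The median difference over the members was -0.22, against 0.02 over all features, and 34 of 53 lay below zero (64.2% against 41.7%). Without the 4 called genes the median of the other 49 was -0.16, with 30 below zero. The member median depended on the libraries: it was -0.03 without replicate 2, -0.08 in the replicate 3 libraries alone, -0.09 without the 8 h libraries and -0.10 without the 8 libraries that carry other names. It was -0.04 over the 38 members of mean 10 or more.

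The called genes were all of low or middle level. Among the 19 of mean 50 or more, a division chosen with the values in view, none was called and the median difference was 0.07. Among the 34 below it, 4 were called and the median was -0.33. It was -0.29 for the 19 between 10 and 50, and -0.43 for the 15 below 10. Differences of low genes are understated by the added 1 and carry more counting error.

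**Figure D2:**
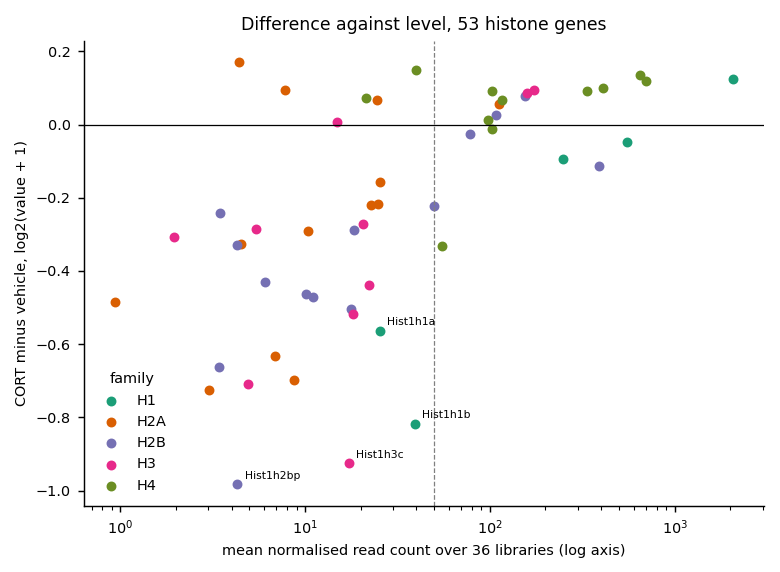
Day mean difference, CORT minus vehicle (log2(value + 1)), of each of the 53 histone genes against its mean normalised read count over 36 libraries (log axis), coloured by family. The genes right of the dashed line at 50 have a median of 0.07 and those left of it -0.33; the 4 called genes are named.

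By family, the H2B genes had a median difference of -0.31 (12 of 14 below zero), the H3 genes -0.30 (7 of 10) and the H2A genes -0.22 (9 of 13). The H1 genes had -0.10, with 4 of 5 below zero and Hist1h1c at 0.12. The H4 genes, which form the octamer's core with H3, had 0.09, with 2 of 11 below zero. No family's median changed sign on the authors' separate scales. There, however, 15.5% of all features were called, and the median difference over all features was 0.07, against 0.02 on the common scale. On those scales 2 abundant H4 genes were called higher under CORT, Hist1h4h at 0.20 (limma, adjusted p = 0.0383) and Hist1h4c at 0.16 (0.0454). The abundant Hist1h4a was called lower, at -0.31 (0.0495). With library weights, where 18.1% of all features were called, Hist1h4h was also higher, at 0.18 (limma, adjusted p = 0.0202), and Hist1h4a lower, at -0.36 (0.0113). The H4 genes are also among the abundant members, so family and level cannot be told apart.

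Hist1h1c, the most abundant member, had 2168 ± 503 normalised reads under CORT and 1995 ± 468 in vehicle (SD, n = 18 each). Its libraries ran from 1499.5 to 3440 and from 1083 to 3083, and the arms overlap throughout. The ratio was 1.09 with a 95% interval of 0.960 to 1.24 (limma, adjusted p = 0.451), so that an increase of up to that upper bound lies within the interval. Hist1h2be, the second most abundant H2B gene, had 160 ± 27.2 and 152 ± 29.5 (SD, n = 18 each), a difference of 0.08 (limma, adjusted p = 0.629). Hist1h2bc and Hist2h2be, the H2B genes known for polyadenylated RNA, had differences of -0.11 (limma, adjusted p = 0.401) and 0.02 (0.904). Hist1h4n, an H4 gene, had 0.07 (0.819). Hist1h4a, another H4 gene, came nearest to the threshold among the members not called, at -0.33 (0.0708).

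At the ends of the order stood genes of few reads. The 5 lowest were Hist1h2bp, Hist1h3c, Hist1h1b, Hist1h2an at -0.73 and Hist1h3g at -0.71. Hist1h2an (H2A) had 2.06 ± 1.95 normalised reads under CORT and 3.96 ± 2.93 in vehicle, and Hist1h3g (H3) 3.63 ± 2.43 and 6.17 ± 3.14 (SD, n = 18 each). Neither passed the test (limma, adjusted p = 0.192 and 0.204). The 5 highest were Hist1h2ai at 0.17, Hist1h4k at 0.15, Hist1h4h at 0.13, Hist1h1c at 0.12 and Hist1h4d at 0.12, with adjusted p-values (limma) from 0.273 to 0.727.

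**Figure D3:**
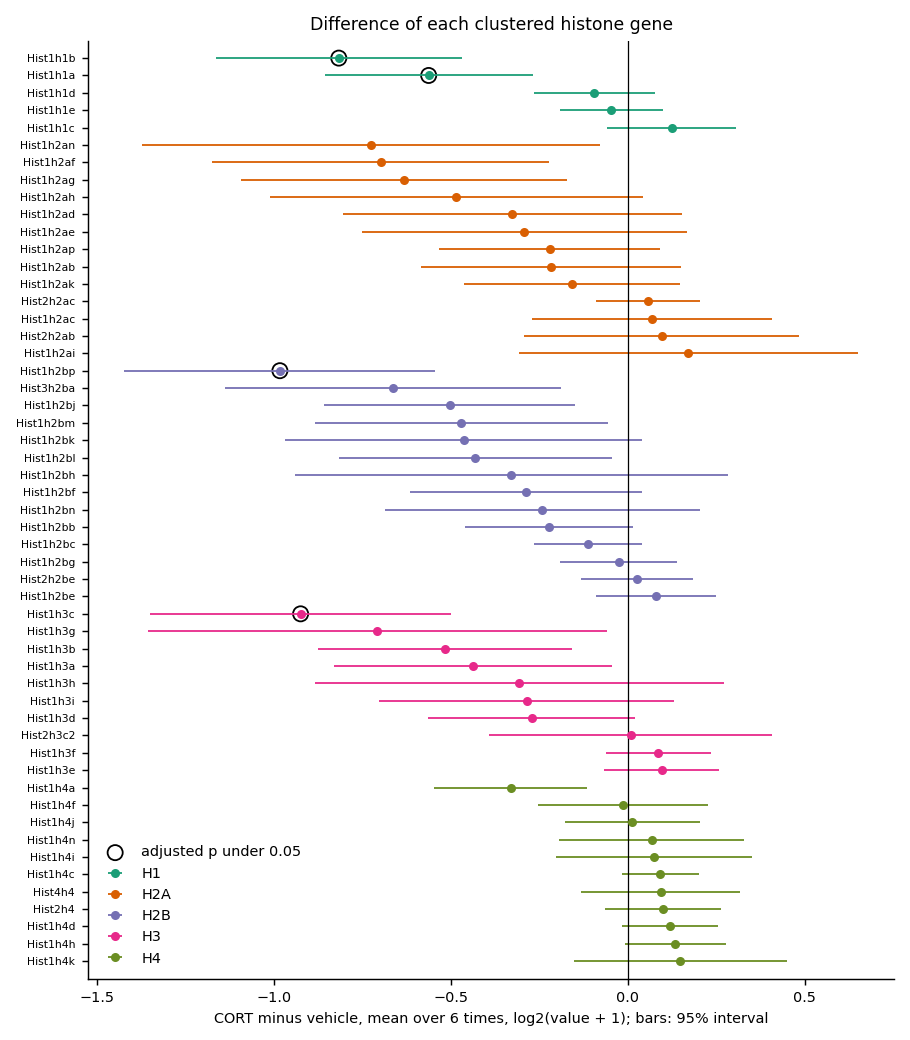
Day mean difference, CORT minus vehicle (log2(value + 1), with its 95% interval), of the 53 histone genes, ordered within each family and coloured by it. The 4 called genes lie between -0.98 and -0.56, and the highest member stands at 0.17.

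Neighbours of opposite orientation were compared next. In 9 pairs an H2A and an H2B gene start back to back, 175 to 301 bases apart. The signs of their differences were the same in 7 pairs, 6 of them below zero. Hist1h2an and Hist1h2bp, 242 bases apart, had -0.73 and -0.98, and Hist1h2ag and Hist1h2bj -0.63 and -0.50. The correlation within a pair over the 36 libraries had a median of 0.33, against 0.26 over all 1378 pairs of members and 0.34 over the 561 pairs of members of mean under 50, a range that holds both genes in 6 of the 9 pairs. These libraries share depth and normalisation, so both are descriptions. By position, the 19 members of the proximal part of the chromosome 13 cluster had a median difference of -0.31, the 27 of the distal part -0.22, and the 7 on other chromosomes 0.06. Members of mean 50 or more were a smaller part of the proximal members than of the rest, so position and level cannot be told apart.

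By the end of the gene model, the 16 members ending at the stem-loop had a median difference of -0.31. The 19 that run beyond it had 0.07 and the 18 without one -0.32. The 22 members sharing 50% or more of their sequence had -0.30 and none was called. The 31 others had -0.03, with all 4 called genes among them. Members of mean 50 or more were a larger part of those that run beyond the stem-loop than of the rest. They were also a larger part of the members that share less. Model end, sharing and level therefore cannot be told apart.

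With any single library left out, all 4 genes were still called, in 36 of 36 cases. Without replicate 1, 3 of them were; Hist1h3c was then at -0.84 (limma, adjusted p = 0.122). With the other larger sets of libraries left out none was, and there the calls over all features were few too. Without the 8 h libraries, an alternative chosen after the data were seen, no member was called (0.129% of all features were). The 4 differences were then -0.73 for Hist1h1b, -0.50 for Hist1h1a, -0.83 for Hist1h3c and -0.92 for Hist1h2bp, with adjusted p-values (limma) of 0.0707 to 0.216. Without the 8 libraries that carry other names, none was called (0.0338% of all features), at -0.63, -0.44, -0.69 and -0.74 in that order. Within the replicate 3 libraries alone the differences were -0.76, -0.38, -0.31 and -0.36, with none called, and without replicate 3 they were -0.85, -0.65, -1.23 and -1.29. Without replicate 2 they were -0.59, -0.34, -0.70 and -0.64 (0.00563% of all features called). Hist1h1a, Hist1h1b and Hist1h3c lay below zero in each of the 52 settings run, and Hist1h2bp in each of the 51 that tested it (a minimum mean of 10 leaves it out). Of these settings 36 leave out a single library, and the 4 genes were chosen for a fall in the same libraries. The shared sign is therefore a description.

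Genes of the cell cycle and of histone supply were counted by list. Of 13 mitosis genes, 11 fell (2.85% of all features did), with a median of -0.84, among them Mki67 at -1.06 (limma, adjusted p = 0.000864), a marker of cycling cells, Cenpf at -1.07 (0.00215) and Cdk1 at -0.63 (0.00557). Of 20 DNA replication genes, which act in S phase as the histone genes do, 3 fell: Mcm6, a helicase subunit, by 0.32 on the log2 scale (0.00716), Rrm2 by 0.43 (0.0212) and Rrm1 by 0.19 (0.0222). Of 9 genes for histone transcription and its cell cycle gate, 2 fell: Ccna2, cyclin A2, at -0.95 (0.000102) and E2f1 at -0.38 (0.0196), while Npat, the coactivator of histone genes, had 0.05 (0.489). These calls depend on the same libraries: none of the 13 mitosis genes was called with the other names of the 8 libraries, without those libraries, or without replicate 2 or 3. Their median was then -0.73, -0.72, -0.72 and -0.67.

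No gene for histone RNA processing and decay (of 16), no histone chaperone (of 14) and no replacement histone (of 11) was called. At an unadjusted p under 0.05 (limma) there were 0, 3 and 5 of them, where 20.3% of all features were. Slbp, the protein that binds the stem-loop shown above, had 152 ± 17.4 normalised reads under CORT and 155 ± 20.3 in vehicle (SD, n = 18 each), a difference of -0.03 (0.836). H3f3b and H2afz, replacement histones made outside S phase, had 0.09 (0.227) and -0.06 (0.818).

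Markers of other cell types moved in the same comparison. All 6 endothelial markers fell, with a median of -0.42; their sum was 2198 to 3876 normalised reads under CORT and 2884 to 5661 in vehicle, and none of the 6 was at 0. Of 6 fibroblast markers, 2 fell, Col1a1 by 0.56 and Col3a1 by 0.42 on the log2 scale. With the other names of the 8 libraries, 0% of all features were called, so these calls depend on the names used. No tested marker of urothelium, smooth muscle, macrophages, T, B, neutrophil, erythroid, fat or striated muscle cells was called. The neutrophil markers S100a8, S100a9 and Ly6g and the striated muscle marker Myh4 were left out by the filter on low values. The part of these cell types in the histone result was not tested. In bulk RNA, fewer cells of a type and less RNA per cell cannot be told apart.

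The second comparison takes each time alone, with 3 libraries against 3. No member was called at any time (limma), where 0.163% of all features were called at 4 h, 0.766% at 8 h, 0.0451% at 12 h, 0.0113% at 16 h, 0% at 20 h and 0.0338% at 24 h. At an unadjusted p under 0.05 there were 4 members at 4 h (6.94% of all features), 18 at 8 h (15.2%), 3 at 12 h (4.53%), 7 at 16 h (3.89%), 4 at 20 h (5.99%) and 0 at 24 h (6.32%). The 18 at 8 h were all lower under CORT (33.96%, against 7.91% of all features lower).

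At 8 h the low members stood high in vehicle. The median difference of the members of mean under 50 was -0.97, and that of the others -0.01. The smallest adjusted p-values (limma) were those of Hist1h4a, at -0.92 (0.0786), Hist1h2bj, at -1.51 (0.0796), and Hist1h3b, at -1.49 (0.0869). Hist1h2bj (H2B) had 8.2, 22.0 and 20.03 normalised reads in the CORT libraries and 30.1, 63.1 and 51.0 in the vehicle libraries. Hist1h4a had 47.1, 40.7 and 54.3 against 87.5, 103 and 81.0. In both genes every CORT library lay below every vehicle library. Hist1h3b (H3) had 16.5, 7.40 and 28.6 against 27.8, 55.1 and 59.0, with 1 CORT library inside the vehicle range.

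Groups that do not overlap were counted at each time. CORT was lower without overlap in 7 members at 4 h (6.5% of all features), 18 at 8 h (11.1%), 5 at 12 h (3.61%), 8 at 16 h (3.7%), 2 at 20 h (6.3%) and 1 at 24 h (5.02%). CORT was higher in 0 (7.15%), 2 (12.8%), 1 (3.27%), 1 (3.15%), 10 (8.69%) and 0 (6.22%) in the same order. At 20 h the sign was the opposite: the member median was 0.21, with 11 of 53 below zero, against 0.04 over all features. Hist1h2ab, an H2A gene, had 30.6, 26.6 and 24.3 normalised reads under CORT at 20 h and 11.4, 19.8 and 8.67 in vehicle.

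The high 8 h values in vehicle stood in each of its 3 libraries. Each gene was set against its own mean over all libraries, and the median of these deviations was taken per library. For the members of mean under 50 it was 0.72, 1.33 and 1.07 in vehicle at 8 h, and 0.01, -0.19 and 0.48 under CORT. The mitosis genes stood at 0.98, 1.68 and 1.83 in the same vehicle libraries, and the DNA replication genes at -0.03, 0.09 and 0.16. Over all 36 libraries, the low members' median deviation and that of the mitosis genes had a correlation of 0.83, and with the DNA replication genes of 0.40. For the members of mean 50 or more these were 0.38 and -0.01. The points are libraries that share depth and normalisation, and the low genes have coarser values, so these are descriptions. Replicate 2 at 8 h is among the libraries with another name in both arms; without it the low members stood at 0.72 and 1.07 in vehicle and at 0.01 and 0.48 under CORT.

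**Figure D4:**
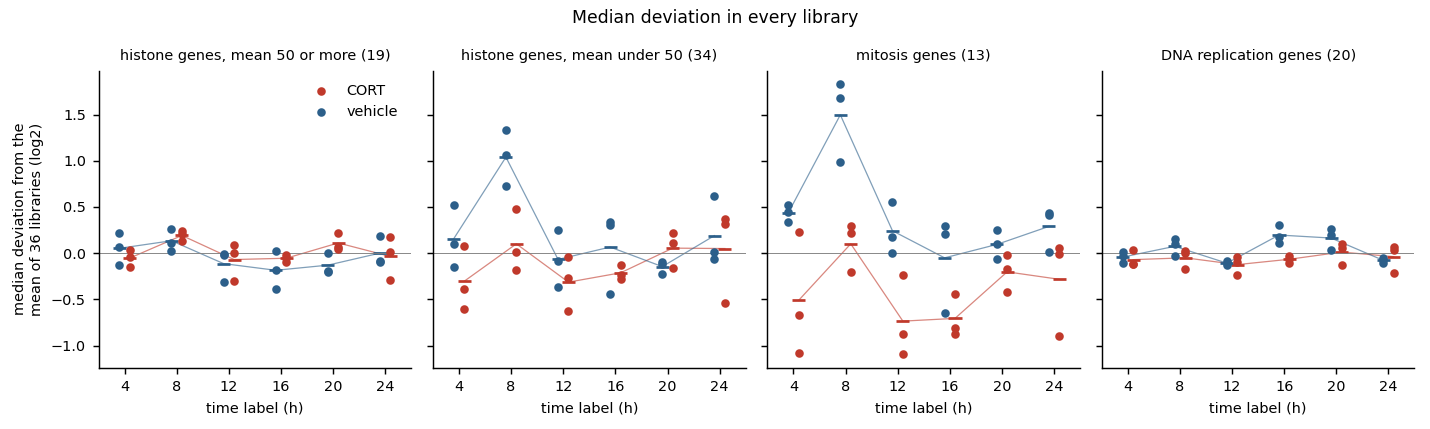
Median deviation from the gene's own mean (log2) in each of 36 libraries by time label, for the histone genes under and above a mean of 50, the mitosis genes and the DNA replication genes. In vehicle at 8 h the low histone genes stand at 0.72, 1.33 and 1.07 and the mitosis genes at 0.98, 1.68 and 1.83, while the DNA replication genes lie between -0.03 and 0.16.

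Outside the members, the 5 features whose pattern over the 36 libraries was most like the members' mean deviation were Kif11, Hmmr, Ccnb2, Top2a and Aspm. Their Pearson r was 0.86, 0.86, 0.85, 0.84 and 0.83, and within the 18 vehicle libraries 0.92, 0.85, 0.85, 0.84 and 0.82. Within CORT it was 0.70, 0.83, 0.77, 0.83 and 0.79. Without the 2 libraries farthest from the median, r over the other 34 was 0.74 to 0.80. Each of these genes is known for a role in mitosis.

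The third comparison is the course over the day within each arm. In vehicle no member was called for a 24 h cosine (limma, 0.44% of 17717 features), and 10 of 53 had an unadjusted p under 0.05 (18.9%, against 12.7%). The smallest adjusted p-values were those of Hist1h4j, amplitude 0.33 (log2, mean to peak) with its peak at 5.70 h (0.19), Hist1h2bl, 0.50 at 6.47 h (0.219), Hist1h2bf, 0.47 at 6.46 h (0.225), Hist1h2ab, 0.65 at 6.89 h (0.254), and Hist1h1c, 0.29 at 5.49 h (0.286). Hist1h4j, an H4 gene, had 110, 152 and 139 normalised reads at 8 h and 86.3, 81.0 and 83.3 at 20 h. Those groups do not overlap.

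The fitted peaks in vehicle stood close together. Of 53 members, 46 peaked between 2 and 10 h (86.8%, against 35.1% of all features), a window chosen with the peaks in view. Under CORT 21 of the 52 members that could be fitted peaked there (40.4%, against 35.1%). These peaks are those of fits that did not pass the test, and the members share libraries, so the share is a description.

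Under CORT no member was called for a cosine (limma, 0% of 17921 features), and 2 of 52 had an unadjusted p under 0.05 (3.85%, against 5.89%). Hist1h1a came first, with an amplitude of 0.61 and a peak at 3.28 h (adjusted p = 0.718). Hist1h2af, Hist2h2ab, Hist1h2bl and Hist1h4a followed. The difference in rhythm between the arms was called for no member (limma, 0.107% of 17744 features), with 1 of 53 at an unadjusted p under 0.05 (4.4% of all features).

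**Figure D5:**
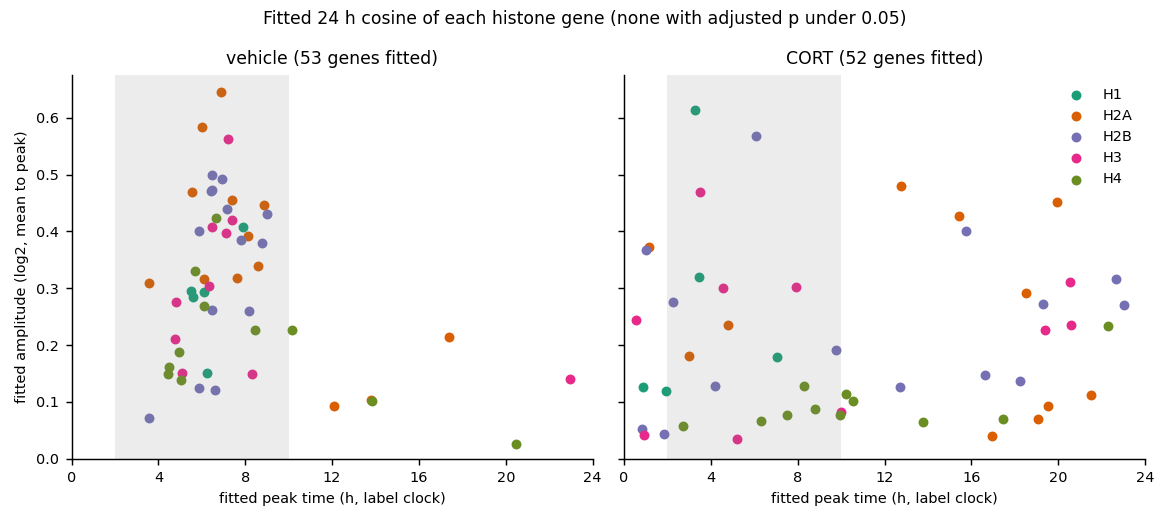
Fitted amplitude (log2, mean to peak) against fitted peak time (h on the label clock) of each histone gene in vehicle (53 genes) and CORT (52 genes), coloured by family; no fit passed the test. In vehicle 46 points lie in the shaded window from 2 to 10 h, and under CORT 21.

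A change of any shape over the 6 times was called for no member in vehicle (limma, 0.401% of features), with 18 of 53 at an unadjusted p under 0.05 (33.96%, against 13.9%). The smallest adjusted p-values were those of Hist1h3b, whose highest and lowest time means differed by 1.67 on the log2 scale (0.105), Hist1h1b, by 1.36 (0.112), Hist1h4n, by 1.16 (0.115), Hist1h2bj, by 1.95 (0.124), and Hist1h1a, by 1.57 (0.129). Hist1h1b had 92.2 ± 18.4 normalised reads at 8 h (SD, n = 3), and its other vehicle groups had means of 35.3 to 49.8. Hist1h1a had 61.1 ± 12.8 at 8 h and 20.5 to 28.9 at the other times. In both genes every 8 h vehicle library was above every other vehicle library. Under CORT none was called (0.0167%), with 4 of 52 at an unadjusted p under 0.05 (5.57% of all features).

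The authors' deposited table of genes selected on vehicle replicates 1 and 2 holds 5 members: Hist1h1a, Hist1h1b, Hist1h2ap, Hist1h4a and Hist1h4n. The authors' deposited table for CORT holds Hist1h1a and Hist3h2ba. The tables made on 3 replicates hold none. The selection used the libraries analysed here, so it adds no independent support.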

How the data were processed

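Total RNA of mouse bladder was sequenced in 36 libraries, 3 in each of 12 groups; rRNA depletion and a directional kit are given per the labels' protocols. Reads were mapped to mm10, as named in the submitters' processing notes. Aligner and counter are not stated in the labels used here. The authors deposited a linear signal per gene: every value is a multiple of 1/12 and all libraries of a table hold the same sorted values, so these are read counts that were quantile normalised over the 12 libraries of each table. The selected-gene tables hold log2 values of the normalised signal plus 1, as the authors deposited them; they were used for names only. A common scale over the 36 libraries was rebuilt from the sorted values. It keeps no total for a single library.

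Values were analysed as log2(value + 1) with limma 3.58.1 in R 4.3.3 (Python 3.11.15, pandas 2.3.3 and numpy 2.4.6 for the rest). The fits were tested on simulated data. The simulated differences between arms were set larger than those of the called genes. They were placed only in features of higher level than Hist1h3c and Hist1h2bp, so that test does not cover these calls. A feature was left out where over 50% of a fit's libraries had it at their lowest value; all 53 members passed this filter except 1 in the CORT fits. Benjamini-Hochberg adjustment ran over all features tested, threshold 0.05. The differences between arms came from 12 group means, and the rhythm from cosine and sine terms of 24 h, tested with limma's F test. Gene models are GENCODE M21 on GRCm38, the assembly of mm10, and promoters are from RefSeq. Genes named are those called, the 2 most abundant per family, the 5 highest and lowest differences, the 5 smallest rhythm p-values per arm and a few known forms. The members and lists were chosen with earlier results of these data known. Same-numbered replicates are not paired by the labels; the median correlation of their deviations was 0.04 over 198 pairs, and 30.8% were over 0.1. Alternatives were the filter, the pseudocount of 5, the scale, the variance model, library weights, the design, library names, the replicate block and leaving out libraries. Each was run on all features.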

Additional observations from a re-analysis of the deposited data

Results flagged for a closer look

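In 2 members every CORT library lay below every vehicle library at 1 time and above it at another. How many of all features did so was not counted, so these 2 cannot be called unusual. By single times, CORT was lower without overlap in 6.5% of all features at 4 h and 11.1% at 8 h. It was higher in 3.27% at 12 h and 8.69% at 20 h. Hist1h2ab, an H2A gene of middle level, had a difference of CORT minus vehicle of -0.76 at 8 h and 1.05 at 20 h on the log2 scale. Hist1h2ai, an H2A gene of a few reads per library, had -1.17 at 4 h and 1.04 at 12 h. The difference between the times was not tested for either gene, and none of the 4 single-time differences passed the adjusted test (limma). Both genes share most of their sequence with other genes.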

How the results depend on the processing

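The count of members called over the day, 4, was 12 on the authors' separate scales, where 15.5% of all features were called, and 14 with library weights (18.1%); 2 and 1 of these were higher under CORT. The count fell to 0 without the 8 doubly named libraries (0.0338% of all features called) and 0 with their other names (0%). In the replicate 3 libraries only it was also 0 (0%). Without the 8 h libraries, a setting chosen after seeing the data, it was 0 (0.129%). Leaving out replicate 1, 2 or 3 gave 0 to 4. There were 4 without replicate 1 (Hist1h3b in place of Hist1h3c), where 2.3% of all features were called. There were 0 without replicate 2 (0.00563%) and 0 without replicate 3 (0.163%). Leaving out single libraries gave 4 to 7, the highest without vehicle 16 h replicate 3. For single libraries left out, here and below, the share of all features called is not given. Those counts therefore have no background beside them. The count at single times, 0, was 1 with a pseudocount of 5, at 8 h (1.19% of all features). With library weights it was 9, at 4, 8 and 16 h (2.22%, 5.35% and 0.552% of all features). It was 0 to 2 when single libraries were left out: 2 without CORT 8 h replicate 3 (Hist1h1b and Hist1h3b), and 1 each on leaving out CORT 12 h replicate 2 or CORT 24 h replicate 1, all of them calls at 8 h. The count for any change in vehicle, 0, was 24 with library weights, where 21.9% of all features were called. It was 1 (Hist1h3b) with the replicate block (0.423%). When replicates or libraries were left out it was 0 to 1. It was 1 each without replicate 1 (0.757% of all features called), vehicle 4 h replicate 3 and vehicle 16 h replicate 3. The replicate block gave 5 members over the day (6.97% of all features), adding Hist1h4a. Apart from this and the count for any change in vehicle given above, it moved no count of calls. The causes were not tested. The rhythm, its difference and any change under CORT gave 0 members in each setting run.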
